A study of Mus musculus with 8 samples.

Results

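Ribosomal protein pseudogenes were examined in the thoracic aortic endothelium of mice treated to delete Mef2c and of their controls. Members were the probe sets whose single gene symbol in the platform annotation starts with Rpl or Rps and contains -ps. This gave 202 of the 72688 probe sets of the array, for 201 of the 30145 symbols with a probe set of their own, since Rpl14-ps1 had 2 probe sets. Of them, 132 were named for proteins of the large subunit (Rpl) and 70 for proteins of the small subunit (Rps), and the part of the symbol before -ps named 51 parent genes. Ribosomal protein pseudogenes as a group were selected on the measured EKO minus control differences of these same arrays. Those differences, and the p-values of the members, are therefore given as a description and are not a test of the members.

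Ribosomal proteins are the protein subunits that, with ribosomal RNA, build the large and small ribosomal subunits and so carry out translation. Their short and abundant mRNAs have been copied back into the genome many times by retrotransposition, and these intronless copies are called processed pseudogenes. Most lack a promoter of their own and an intact reading frame, and because the copies stay close in sequence to the parent mRNA, an array probe designed for a pseudogene can also bind the parent's RNA.

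The EKO samples were 4 thoracic aortas of female Cdh5-CreERT2+; Mef2c f/f mice that received tamoxifen. The controls were 4 thoracic aortas of female littermates of the same genotype that received the vehicle, sunflower seed oil with 10% ethanol. Both groups thus carried the Cre transgene, which the endothelial Cdh5 promoter drives, and the floxed alleles, so the effects of tamoxifen and of Mef2c deletion cannot be told apart. Per the labels, mice were injected daily on 5 days at 10 weeks of age, and tissue was collected on day 14 counted from the first dose. RNA was collected by passing TRIzol through the lumen of single aortas, and 5 ng of it was labelled for an Affymetrix Mouse Transcriptome Array 1.0. In such bulk RNA, fewer cells of a type and less RNA per cell cannot be told apart. Levels below are deposited log2 values of a probe set, and differences are EKO minus control on that log2 scale.

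RefSeq (assembly GRCm38.p6) listed all 202 members, 201 by their own symbol and Rps23-ps by a synonym. It classed 194 probe sets as pseudogenes, 6 as transcribed pseudogenes and 2, Rpl31-ps12 and Rpl34-ps1, as protein-coding. The promoter table of RefSeq held 1 member, Rpl31-ps12, and 40 of the 51 parents. The windows of Rpl31-ps12 and of its parent Rpl31, a large-subunit protein gene, are shown because they let the copy be read against its source. Each runs 5′ to 3′ on the gene's strand, with 250 bases before the annotated start and 50 after it. The Rpl31-ps12 window lies at chr16:16820147-16820446 on the minus strand of GRCm38.p6, and the Rpl31 window at chr1:39367601-39367900 on the plus strand. Capitals mark the runs of at least 10 bases that the windows share.
Rpl31-ps12: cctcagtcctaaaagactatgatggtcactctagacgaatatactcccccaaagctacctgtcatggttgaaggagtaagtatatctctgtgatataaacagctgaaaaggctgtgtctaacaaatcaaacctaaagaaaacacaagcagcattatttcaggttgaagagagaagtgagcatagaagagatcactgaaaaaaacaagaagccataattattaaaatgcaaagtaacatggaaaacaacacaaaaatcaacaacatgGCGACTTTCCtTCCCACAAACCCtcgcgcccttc
Rpl31: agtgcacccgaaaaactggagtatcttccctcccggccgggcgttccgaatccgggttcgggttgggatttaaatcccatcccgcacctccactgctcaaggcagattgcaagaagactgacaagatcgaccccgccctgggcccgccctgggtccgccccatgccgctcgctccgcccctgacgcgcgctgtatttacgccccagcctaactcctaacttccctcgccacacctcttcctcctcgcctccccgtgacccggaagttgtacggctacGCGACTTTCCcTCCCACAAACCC
No run of that length was shared before the annotated starts. After them, the windows held a matching stretch of 23 bases with 1 difference, C288T, written as the Rpl31 base, its position counted from 1 at the 5′ end of the Rpl31 window, and the Rpl31-ps12 base. The stretch reached the last base of the Rpl31 window, so how far the match extends is not shown. The 10-base run GCGACTTTCC occurred on either strand in 0.0487% of the 32851 full-length windows of the table, and the 12-base run TCCCACAAACCC in 0.0183%. Rpl31-ps12 had a level of 17.28, 17.21, 17.19 and 17.24 in EKO arrays, against 17.13, 17.14, 17.19 and 17.17 in control arrays. The groups overlapped, and the probe set of Rpl31 itself had a mean level of 9.66 over the 8 arrays.

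Across the series, no gene passed an adjusted p of 0.05 in limma (0% of 16253 tested, smallest adjusted p 0.479). At an unadjusted p under 0.05, 882 were higher in EKO (5.43%) and 571 were lower (3.51%). The targeted gene Mef2c, a MADS-box transcription factor, had a level of 9.75 ± 0.20 in EKO arrays and 9.77 ± 0.11 in control arrays (SD, n = 4 each). The floxed part of the gene is not named in the labels, so this probe set cannot check them. The mean level of 14 endothelial marker genes, among them Cdh5, Pecam1 and Kdr, was between 12.5 and 12.7 in both groups, so markers of the labelled tissue were present. EKO array 2 had the highest neutrophil marker mean, 8.08, against 6.06 to 6.67 in the other EKO arrays and 5.69 to 6.96 in control arrays. Adipocyte markers were between 7.86 and 9.83 in EKO arrays and between 8.30 and 10.4 in control arrays, and EKO array 2 had the lowest value. The 2 erythroid markers with a probe set averaged 10.36 to 10.77 in EKO arrays and 10.55 to 12.18 in control arrays, and 7 fibroblast markers 7.999 to 8.57 in EKO arrays and 8.25 to 8.98 in control arrays. No marker list had a gene at 0, but the lowest mean of any probe set with 1 symbol was 3.10, so none could have. Of the marker genes above, 1 adipocyte and 3 neutrophil genes lay below 6.14, the level filter of the fit. With the adipocyte marker mean as a covariate in limma, 188 members (93.1%) had a higher level in EKO, against 186 (92.1%) without it. Of all probe sets with a single symbol, 57.9% had a higher level in EKO with this covariate, against 59.5% without it. Of the 185 members tested, 50 were higher at an unadjusted p under 0.05, against 65 without it. Of all genes tested, 5.27% were, against 5.43% without it. The part of the other cell types in the pseudogene values was not tested.

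The pseudogene probe sets were bright. Their median level was 13.58, and 108 of the 202 (53.5%) lay at 13 or above, against 3.50% of the 30604 probe sets with 1 symbol. At 17 or above there were 145 such probe sets in all, of which 40 were ribosomal protein pseudogenes. The highest was Rps23-ps, named for a small-subunit protein of the decoding centre, at a mean of 19.32. At the other end, 33 members lay below 7.34, the lowest array median of the control probe sets marked neg, and Rpl9-ps2 was the dimmest at 5.07. The brightness of a probe set depends on its probes as well as on the RNA, so the order of these levels is not an order of transcript amounts.

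**Figure D1:**
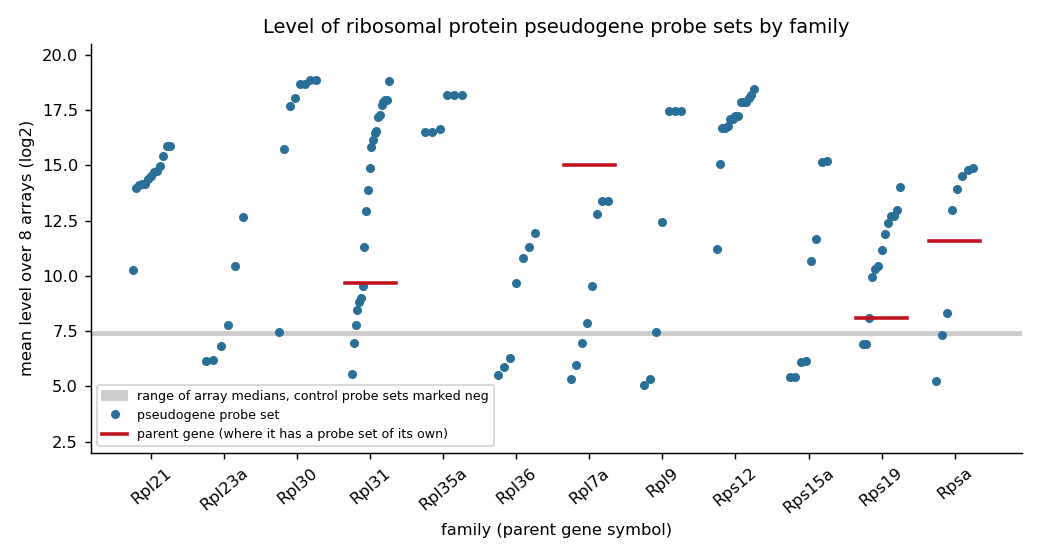
Mean level over the 8 arrays (log2) of each pseudogene probe set (points) in the 12 families with at least 5 members, with the parent gene's level (line) where it has a probe set of its own, and the range of array medians of the neg control probe sets (band). Rps12 and Rpl35a pseudogenes lie high, with lowest levels of 11.20 and 16.50, while Rpl31 pseudogenes span 5.54 to 18.81.

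Of the 202 members, 186 had a higher mean in EKO arrays (92.1%), where 59.5% of all probe sets with 1 symbol did, and 16 had a lower one. The median difference over the members was 0.14, against 0.03 over all 30604 probe sets with 1 symbol and -0.02 over the 16253 genes tested. The differences were small: they spanned -0.17 in Rpl27-ps1 to 0.72 in Rps15a-ps5, and 2 members, Rps15a-ps5 and Rpl31-ps24, exceeded a 1.5-fold change. In 61 members (30.2%) every EKO array lay above every control array, against 4.26% of all probe sets with 1 symbol. In 0 members did every EKO array lie below (1.66% of all). Level was not matched in these shares. At 13 to 15, every EKO array lay above in 25.8% of members and in 5.87% of all probe sets with 1 symbol. Above 17 the shares were 22.5% and 14.5%. Of the 185 members tested, 65 had an unadjusted limma p under 0.05 and were higher in EKO (35.1%, against 5.43% of all genes tested), 0 were lower, and 0 passed after Benjamini-Hochberg adjustment. The other 17 were not tested, 16 of them because their mean lay below 6.14 and 1 because it was the dimmer Rpl14-ps1 probe set. Since members were chosen with these differences known, nothing is read from their counts against the background. The majority changed with the scaling. After quantile normalization 150 of the 202 were higher in EKO (74.3%, against 49.7% of all), and after centring on the tested genes 194 were (96.0%, against 68.2%).

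Among the large-subunit families, Rpl31 was the largest, with 22 probe sets. Its levels were between 5.54 in Rpl31-ps21 and 18.81 in Rpl31-ps8, and 21 of the 22 differences were above 0, with a median of 0.17 (16 of 22 and 0.10 under quantile normalization). In 10 of them every EKO array lay above every control array, as in 4.26% of all probe sets with 1 symbol. Over all probe sets with 1 symbol this share was 5.87% at 13 to 15 and 14.5% above 17. Rpl31-ps24 had a level of 9.20, 10.02, 9.06 and 9.09 in EKO arrays, against 8.57, 8.67, 8.78 and 8.71 in control arrays. All EKO arrays were above all control arrays, EKO array 2 stood well above the other EKO arrays, and the means were 9.34 ± 0.46 and 8.68 ± 0.08 in EKO and control arrays (SD, n = 4 each), a difference of 0.66. Rpl31-ps25 had a level of 7.20, 7.52, 7.01 and 7.10 in EKO arrays, against 6.70, 6.63, 6.82 and 6.70 in control arrays. Rpl31-ps23 had a level of 8.53, 8.93, 8.68 and 8.74 in EKO arrays, against 8.13, 8.22, 8.33 and 8.23 in control arrays. In both, every EKO array lay above every control array and EKO array 2 was highest, with differences of 0.50 and 0.49. The mean of Rpl31-ps25, 6.96, lay below the array medians of the neg control probe sets. Rpl31-ps8, the brightest of the family, read 18.80, 18.78, 18.84 and 18.79 in EKO arrays, against 18.75, 18.90, 18.81 and 18.79 in control arrays. Its groups overlapped throughout, and its difference of -0.01 was the one below 0 in the family.

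Rpl21, which encodes a large-subunit protein, had 13 pseudogene probe sets, and 12 of them lay at 13 or above. All 13 differences were above 0 (median 0.20), 12 of them also under quantile normalization. In 7 every EKO array lay above every control array, as in 5.87% of all probe sets with 1 symbol at 13 to 15. The one at a lower level, Rpl21-ps9, had the family's largest difference, 0.44. It read 10.24, 10.81, 10.51 and 10.37 in EKO arrays, against 10.15, 9.93, 10.09 and 9.98 in control arrays. Every EKO array lay above every control array, EKO array 1 by the least.

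Rpl30 had 8 members, 7 of them at 13 or above, and its brightest 4, Rpl30-ps1, Rpl30-ps10, Rpl30-ps9 and Rpl30-ps8, had means between 18.68 and 18.87. Their differences were between 0.03 and 0.05 and their groups overlapped. Rpl30-ps2 stood apart from them with a difference of 0.40. It read 15.65, 16.25, 15.87 and 15.93 in EKO arrays, against 15.55, 15.64, 15.52 and 15.38 in control arrays. Every EKO array lay above every control array, by a narrow margin. Under quantile normalization the direction of the bright Rpl30 members flipped: 3 of the 8 stayed above 0 and the family median was -0.01. The direction of Rpl35a flipped likewise. Its 6 members, at 16.50 to 18.20, had a median difference of 0.03, and after quantile normalization 1 of the 6 was above 0 and the median was -0.05.

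Rpl9, a large-subunit protein gene, had 7 members spread over the level range, all higher in EKO (4 of 7 under quantile normalization). Rpl9-ps2 lay at 5.07, Rpl9-ps3 at 7.46, Rpl9-ps1 at 12.42, and 3 lay at 13 or above. Rpl9-ps1 read 12.42, 13.16, 12.82 and 12.44 in EKO arrays, against 12.11, 12.22, 12.08 and 12.10 in control arrays. Rpl9-ps3 read 7.45, 7.93, 7.93 and 7.51 in EKO arrays, against 7.41, 7.11, 7.25 and 7.09 in control arrays. In both, every EKO array lay above every control array and the differences were 0.58 and 0.48, while the brightest member of the family, Rpl9-ps6, differed by 0.05 and Rpl9-ps7 by 0.01.

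Rpl7a had 8 members at 5.32 to 13.40, all with differences above 0 (7 of 8 under quantile normalization) and a median of 0.21. Rpl7a-ps13 read 7.78, 8.29, 8.17 and 8.19 in EKO arrays, against 7.55, 7.67, 7.70 and 7.42 in control arrays. Its EKO arrays were all above its control arrays, by a mean of 0.52. Rpl36 and Rpl23a had 7 and 6 members, none at 13 or above, and all of these were higher in EKO, also under quantile normalization, with medians of 0.15 and 0.27. Rpl23a-ps4 led its family with a difference of 0.40 and groups that did not overlap. The Rpl36 pseudogenes were high on EKO array 3, where their median deviation from each probe set's own mean was 0.41, against -0.09 on EKO array 2. Rpl36-ps2 read 11.26, 10.91, 11.73 and 11.50 in EKO arrays, against 11.18, 11.36, 11.18 and 11.37 in control arrays, so the highest and the lowest value both belonged to EKO arrays.

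Among the small-subunit families, Rps12 was the largest with 15 members, 14 of them at 13 or above. All 15 were higher in EKO, with a median difference of 0.15. In 12 every EKO array lay above every control array, among them Rps12-ps6, Rps12-ps17 and Rps12-ps18, which have identical values. Over all probe sets with 1 symbol this share was 4.26%, and it was 5.87% at 13 to 15 and 14.5% above 17. Rps12-ps7, the dimmest, had the largest difference, 0.42. It read 11.28, 11.47, 11.51 and 11.39 in EKO arrays, against 11.05, 10.99, 11.01 and 10.90 in control arrays. No control array reached the lowest EKO array. Rps12-ps9, the brightest, read 18.48, 18.51, 18.47 and 18.47 in EKO arrays, against 18.33, 18.42, 18.44 and 18.45 in control arrays. The groups were apart by a narrow margin, and the difference was 0.07, but -0.007 under quantile normalization. Under quantile normalization 12 of the 15 Rps12 members stayed above 0, with a median of 0.04.

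Rps19, whose product is needed to mature the small subunit, had 13 members at 6.90 to 14.04. All 13 were higher in EKO, also under quantile normalization, and the median difference was 0.20. Rps19-ps10 read 9.93, 10.14, 10.24 and 10.20 in EKO arrays, against 9.43, 9.85, 9.85 and 9.86 in control arrays. Control array 1 lay far below the other controls, and the difference was 0.38. The family followed control array 1 and EKO arrays 3 and 4: its median deviation from each probe set's own mean was -0.02, -0.04, 0.27 and 0.26 in EKO arrays, against -0.26, -0.05, -0.05 and -0.04 in control arrays. EKO array 2 thus lay within the range of the control arrays and EKO array 1 just above it.

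Rps15a had 8 members, 4 of them below 9, and Rps15a-ps5 had the largest difference of all members. It read 11.70, 12.51, 12.002 and 11.97 in EKO arrays, against 11.47, 11.13, 11.26 and 11.46 in control arrays. Every EKO array lay above every control array, EKO array 2 by the most, and the means were 12.05 ± 0.34 and 11.33 ± 0.16 in EKO and control arrays (SD, n = 4 each), a difference of 0.72. Rpsa, which encodes a small-subunit protein also known as the laminin receptor, had 8 members, 6 higher in EKO and 2, Rpsa-ps2 and Rpsa-ps10, lower. Rpsa-ps11 read 8.43, 8.95, 8.19 and 8.51 in EKO arrays, against 8.12, 7.78, 8.19 and 8.33 in control arrays. Its groups overlapped, its difference was 0.41, and its SD within groups, 0.28, was among the 5 largest of the members tested.

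Smaller families added Rps16-ps3 and Rps10-ps4, both named for proteins of the small subunit. Rps16-ps3 read 7.11, 7.30, 7.38 and 7.36 in EKO arrays, against 6.63, 6.85, 6.64 and 6.97 in control arrays. Rps10-ps4 read 6.52, 6.51, 6.71 and 6.46 in EKO arrays, against 6.10, 6.32, 6.13 and 6.02 in control arrays. Neither pair of groups overlapped, and the differences were 0.52 and 0.41. Both means, 7.03 and 6.35, lay below the array medians of the neg control probe sets.

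**Figure D2:**
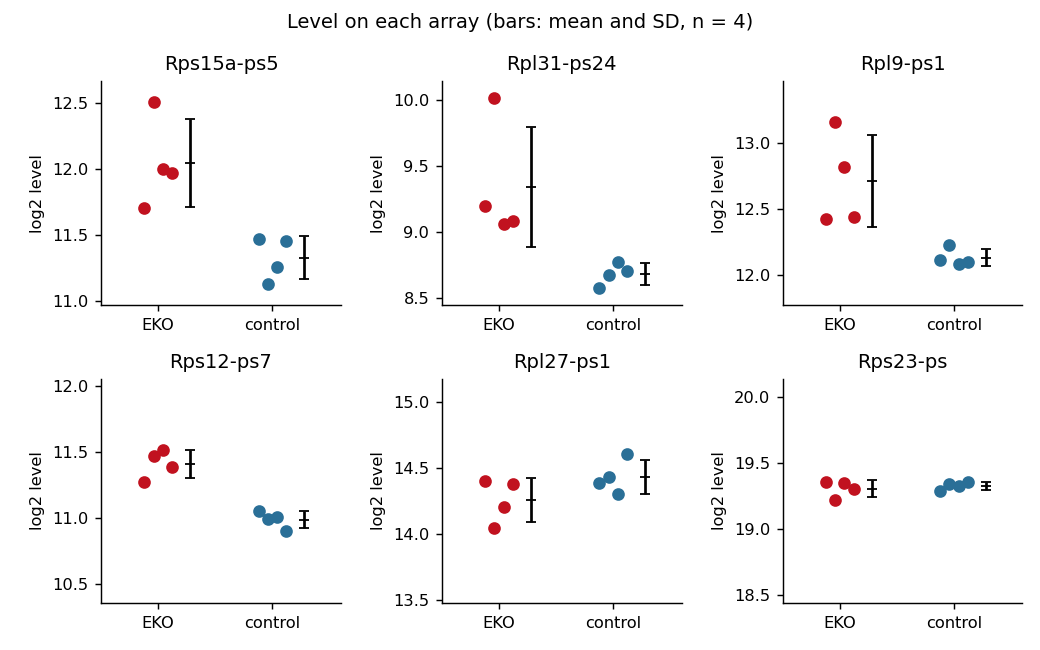
Log2 level of 6 members on each array, EKO arrays left and control arrays right, with the mean and SD of each group (n = 4) beside the points. Every panel spans the same range of log2 units. In Rps15a-ps5, Rpl31-ps24, Rpl9-ps1 and Rps12-ps7 all EKO arrays lie above all control arrays, and in Rpl27-ps1 and Rps23-ps the groups overlap.

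Of the 16 probe sets with a lower mean in EKO, 13 lay at 13 or above, and in none did all EKO arrays lie below all control arrays. Rpl27-ps1 read 14.40, 14.05, 14.21 and 14.38 in EKO arrays, against 14.39, 14.43, 14.31 and 14.61 in control arrays. Its groups overlapped, EKO array 2 was lowest, and the difference was -0.17. Rplp0-ps1, a copy of the gene for a stalk protein, read 12.41, 12.62, 12.80 and 12.91 in EKO arrays, against 12.79, 12.92, 12.76 and 12.76 in control arrays, a difference of -0.12 with overlapping groups. Rpl28-ps1 differed by -0.10 and both Rpl14-ps1 probe sets by -0.08 and -0.04. The brightest member, Rps23-ps, read 19.36, 19.22, 19.35 and 19.30 in EKO arrays, against 19.28, 19.34, 19.33 and 19.35 in control arrays, and its groups overlapped throughout.

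The difference was smaller in brighter members. Below 9, 50 of 51 members were higher in EKO with a median difference of 0.26. Between 9 and 13, 41 of 43 were higher, with a median of 0.20, and at 13 or above 95 of 108, with a median of 0.08. Across the 197 members with distinct values, Spearman's rho of difference with level was -0.53, and that of the within-group SD with level was -0.56. Probe sets on the same 8 arrays are not independent. After quantile normalization 46 of 51, 41 of 43 and 63 of 108 were higher, against 49.7% of all probe sets with 1 symbol at any level. The median of the members at 13 or above was then 0.02. Over all probe sets with 1 symbol, the median difference was 0.07 below 7, -0.03 between 7 and 9, -0.06 between 9 and 11, and 0.03 above 17. The pseudogene medians in the same ranges were 0.19, 0.31, 0.19 and 0.05.

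**Figure D3:**
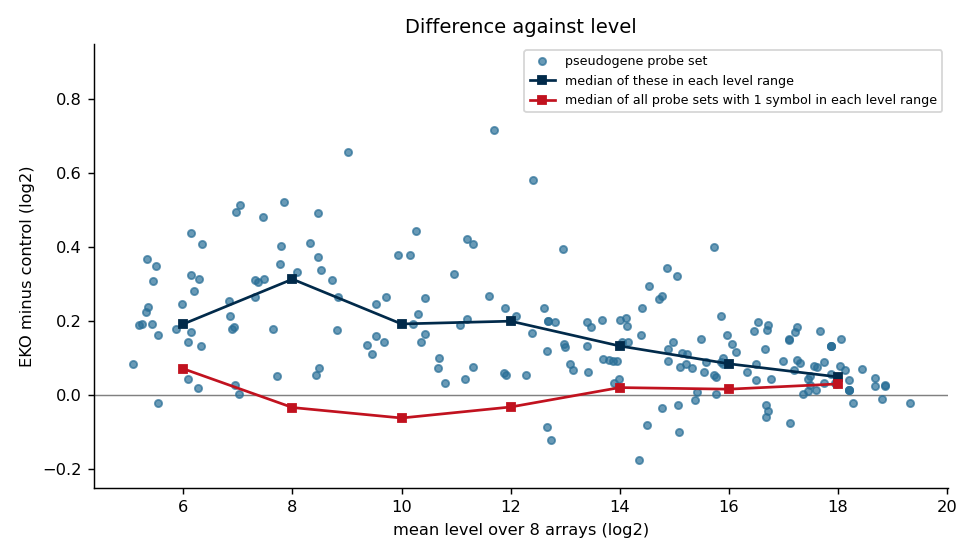
EKO minus control difference (log2) of each pseudogene probe set against its mean level over the 8 arrays (log2), with the median of the pseudogenes and of all probe sets with 1 symbol in each of 7 level ranges. The pseudogene medians are 0.19 and 0.31 in the lowest ranges and 0.05 above 17, while the medians of all probe sets lie between -0.06 and 0.07.

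Parent genes were compared where the platform gave them a probe set of their own. This held for 18 of the 51, which are the parents of 78 members. The other 33 had none with a single symbol and are given no value. Among the 78, 46 members read above their parent and 32 below, with a median gap of 1.74. Rpl10a-ps1 lay 9.80 above Rpl10a, whose own mean was 7.79, and Rpl35-ps1 lay 11.7 below Rpl35, at 17.06. In the Rpl31 family 15 of 22 pseudogenes read above the parent at 9.66. In the Rps19 family 10 of 13 read above Rps19 at 8.11. No Rpl7a pseudogene reached Rpl7a, which lay at 15.01.

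The 18 parents had a median difference of 0.02, 10 above and 8 below 0, and in none did the groups separate. Rpl31 read 9.93, 9.73, 9.63 and 9.75 in EKO arrays, against 9.499, 9.65, 9.53 and 9.60 in control arrays. EKO array 3 lay within the control range, and the difference was 0.19 (limma, unadjusted p = 0.0472, adjusted p = 0.552). Rplp0 read 13.09, 12.96, 13.35 and 13.32 in EKO arrays, against 13.41, 13.49, 13.34 and 13.26 in control arrays, a difference of -0.20 with overlapping groups (limma, adjusted p = 0.602). Rpl27 differed by -0.16 (limma, adjusted p = 0.637), and its copies Rpl27-ps1 and Rpl27-ps2 differed by -0.17 and -0.09. Of the 78 members, 60 had a larger difference than their parent, with a median excess of 0.12. In the Rpsa family all 8 did, and Rpsa itself differed by -0.10 (limma, adjusted p = 0.697). In the Rpl31 family 9 of 22 did.

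**Figure D4:**
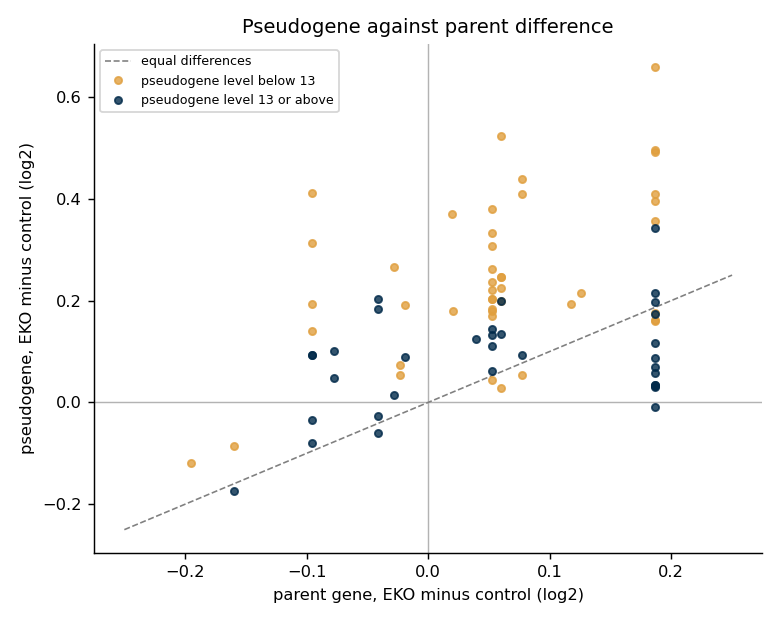
EKO minus control difference (log2) of the 78 pseudogene probe sets against that of their parent gene, coloured by pseudogene level, with the line of equal differences. Points of one family share an x value, and 60 of the 78 lie above the line.

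Members and parents also varied together within groups, a measure that does not use the difference between groups. Over deviations from the group means (8 arrays), Pearson's r of a member with its parent had a median of 0.48 and was above 0 in 64 of 78. Rps19-ps13 with Rps19 had the highest, 0.97. Rps10-ps2, Rpl27-ps1, Rpl19-ps11 and Rpl39-ps had 0.94, 0.93, 0.92 and 0.91. The lowest were in the Rpl31 and Rpsa families, with -0.76 in Rpl31-ps5, -0.56 in Rpl31-ps22 and -0.45 in Rpsa-ps11. The median was 0.61 over the 34 members at 13 or above and 0.42 over the 44 below, and by family it was 0.71 for Rps19 and 0.10 for Rpl31. Among members, pairs of one family had a median r of 0.42 (693 pairs) and pairs of different families 0.18 (18613 pairs). These values share the arrays, and the 78 come from 18 parents, so they are not 78 separate agreements. No r of a member with genes outside the members and parents is given for comparison. Whether probe sets also share probes was not tested, and no p is given.

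Some members could not be separated at all. Rps19-ps1 and Rps19-ps2 had the same values on all 8 arrays, as did Rps12-ps6, Rps12-ps17 and Rps12-ps18, and Rpl35a-ps3, Rpl35a-ps4 and Rpl35a-ps6. Rps12-ps13 shared its values with Gm21571. Counted once, the 202 probe sets gave 197 distinct profiles, and 59 of these, in place of 61, had every EKO array above every control array. A further 22 probe sets carried a member's symbol beside others and were left out. Among them, 16 held the parent's symbol, and 9 of the 16 were higher in EKO, with a median difference of 0.01.

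Members lay on 20 chromosomes, 29 of them (14.4%) on X, against 6.14% of the probe sets with 1 symbol whose identifier gives a chromosome. All 29 were higher in EKO, with a median difference of 0.15, against 157 of 173 and 0.13 on the autosomes, and 66.5% of all such probe sets on X were higher. Under quantile normalization 22 of the 29 were, against 49.7% of all probe sets with 1 symbol. Rps12 contributed 11 of the 29. In RefSeq's gene order 9 of these, among them Rps12-ps6, Rps12-ps13 and Rps12-ps20, followed one another at no more than 3 places apart. In all 11 every EKO array lay above every control array, against 1 of the 4 Rps12 members elsewhere, with median differences of 0.15 on X and 0.06 elsewhere. Over all probe sets with 1 symbol the share was 4.26%, and it was 14.5% above 17. No such share is given for X alone. Level was not matched: Rps12-ps7, the dimmest at 11.20, lies on X, and Rps12-ps9, the brightest at 18.45, does not. The part of level in this contrast was not tested. Rps12-ps6, Rps12-ps17 and Rps12-ps18 on X had identical values, so these are not 11 separate measurements.

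The shift was not even over the arrays. The median deviation of the 202 members from their own means was 0.01, 0.03, 0.11 and 0.12 in EKO arrays, against -0.12, -0.03, -0.07 and -0.05 in control arrays. In this median over all members, all EKO arrays were above all control arrays, with EKO array 1 nearest to control array 2. Members below 9 and those at 13 or above ordered the EKO arrays differently: EKO array 2 was the highest for the dimmer members, at 0.21, and the lowest for the brighter, at -0.03. For the brighter members the groups thus overlapped, with control arrays 2 and 4 above EKO array 2, at -0.01 and -0.02. EKO array 2 also had the highest median over all probe sets, 6.24, against 6.10 to 6.19 in the other EKO arrays and 6.06 to 6.15 in control arrays. With the array median as a covariate, 23 of the 185 members tested were higher at an unadjusted p under 0.05, against 65 without it, and so were 3.73% of all genes tested, against 5.43% without it. Without EKO array 2, 192 of 202 were higher in EKO, against 57.8% of all probe sets with 1 symbol. Without EKO array 4, 174 were, against 58.6% of all. Another covariate was the gap between the array medians of the control probe sets marked pos and neg. With it, 52 of the 185 members tested were higher at that threshold, and so were 3.57% of all genes tested. The part of array brightness in the members' difference was not tested further.

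**Figure D5:**
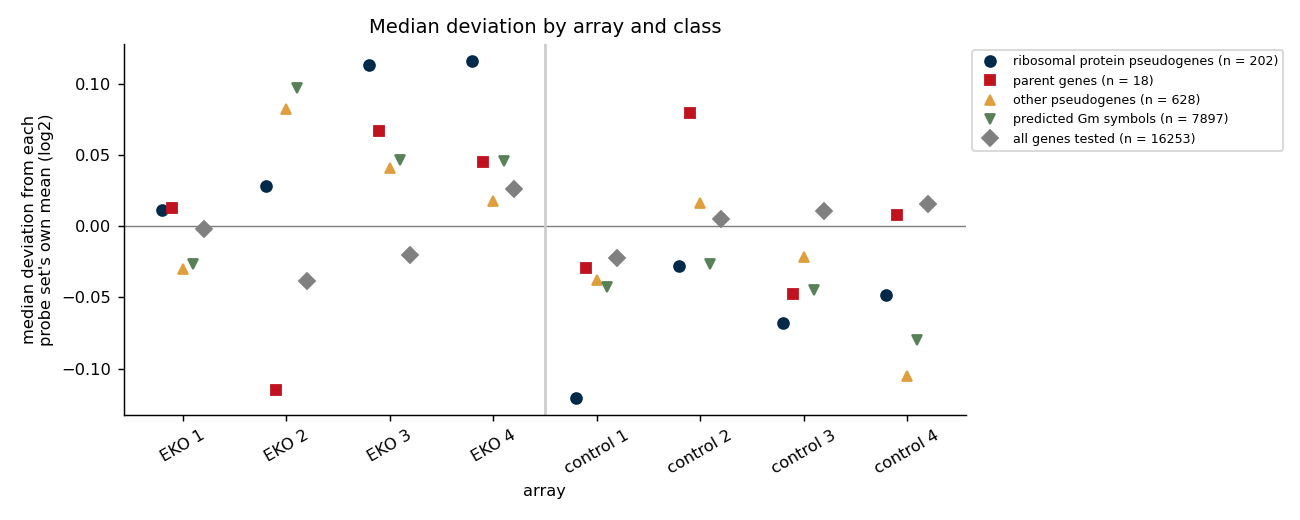
Median deviation (log2) of probe sets from their own mean over the 8 arrays, for ribosomal protein pseudogenes, their parents, other pseudogenes, predicted Gm symbols and all genes tested, on each EKO array (left) and control array (right). The pseudogenes lie at 0.01 to 0.12 on EKO arrays and at -0.12 to -0.03 on control arrays, and the parents range between -0.11 and 0.07 on EKO arrays and between -0.05 and 0.08 on control arrays.

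Other genes of the ribosome are given beside the pseudogenes. Of the 86 cytosolic ribosomal protein genes listed, 40 had a probe set with their symbol alone, 20 higher and 20 lower in EKO, and of the 38 tested 0 passed after adjustment in either direction (limma). Of 24 factors of ribosome biogenesis and translation, 5 were higher and 19 lower, and 0 passed (limma). The 74 mitochondrial ribosomal proteins had a median difference of -0.09, with 9 higher in EKO. Among transcripts not named for ribosomal proteins, 628 probe sets of other pseudogenes had a median difference of 0.06, with 67.4% higher, and 7897 probe sets with predicted Gm symbols had 0.09, with 73.4% higher. Olfactory receptors, 1081 probe sets with a median level of 5.20, had 0.07. Most of these classes were dimmer than the ribosomal protein pseudogenes, with medians of 5.56 for other pseudogenes and 6.08 for Gm symbols. Among Gm symbols, 76.3% were higher at 11 to 13, 73.8% at 13 to 15, 57.0% at 15 to 17 and 72.2% above 17. The ribosomal protein pseudogenes had 91.7%, 90.3%, 83.8% and 90% in the same ranges. Above 17, every EKO array lay above every control array in 16.7% of Gm symbols and in 22.5% of ribosomal protein pseudogenes. The difference between the pseudogenes and these classes was not tested.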

How the data were processed

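The authors deposited log2 expression values per probe set, which the labels credit to SST-RMA (Expression Console). No software version or genome build is given in the sources used here. That method equalizes the distribution of signal between arrays, so differences in overall brightness were reduced before deposit. All 8 columns were assigned to groups by the sample titles. Members and gene lists were chosen with earlier results of these data known.

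Symbols came from the platform annotation, which named a single gene for 30604 probe sets and more than 1 for 2146, and control probe sets (6732) were left out of the tests. Levels and differences are given for every member probe set. For the fit over genes, the probe set with the highest mean stood for a symbol, and the 16253 with a mean above 6.14 (the probe-set median) entered it. The test was limma's lmFit and eBayes (limma 3.58.1, R 4.3.3, no covariates, Benjamini-Hochberg adjustment, threshold 0.05). The fit was tested on simulated data. Values from the array have no counts, so the number of arrays limits the precision. Samples come from separate aortas, per the labels.

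Named, among the members tested, were the 8 brightest, the 12 with the largest positive and 6 with the largest negative difference, the 5 with the highest and the 5 with the lowest correlation with their parent, the 5 with the largest within-group SD, and their parents, and, tested or not, the extremes of families of 5 or more. Other names (members with identical values, Rpl31-ps12, Rpl10a-ps1, Rpl35-ps1, Rpsa-ps10 and Rps12-ps20) were chosen after their values were seen. Replicate numbers were not used to pair the samples: the correlation of deviations between same-numbered arrays was -0.16, 0.21, -0.24 and 0.13. These values show no steady pairing and cannot exclude one.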

Additional observations from a re-analysis of the deposited data

Results flagged for a closer look

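In 168 groups of 4 arrays, named members and parents in EKO and in control, 9 held 1 array far from the other 3, where chance alone marks about 1 in 20 groups. Rpl31-ps24 read 10.02 on EKO array 2, with the other EKO arrays at 9.06 to 9.20. Rpl7a-ps9 read 5.28 on EKO array 1, with the others at 5.46 to 5.49. The parents Rpl38, Rps24 and Rpl10a were low on EKO array 2, at 10.57, 10.51 and 7.70, with the other EKO arrays at 10.86 to 10.90, 10.66 to 10.67 and 7.79 to 7.81. Among control arrays, Rps19-ps10 read 9.43 on control array 1 with the others at 9.85 to 9.86, and Rps12-ps10 read 18.10 on the same array with the others at 18.21 to 18.23. Rpl36-ps7 read 5.04 on control array 3 with the others at 5.41 to 5.46. Rpl9-ps7 read 17.38 on control array 4 with the others at 17.47 to 17.48. EKO array 2 accounted for 4 of the 9, and the cause was not tested.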

How the results depend on the processing

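No gene passed after adjustment in limma in any of 23 settings, with a smallest adjusted p of 0.163. The median difference over the members was 0.14, was between 0.11 and 0.16 when arrays were left out one at a time, and was 0.0885 after quantile normalization. The number of members higher at an unadjusted p under 0.05 was 65 (5.43% of all genes tested), was between 44 and 66 when arrays were left out (3.89% to 7.62% of all), and was 23 with the array median as a covariate (3.73% of all). A block for the replicate number, which is not known to pair these samples, gave 44 (4.92% of all). The median over the 18 parents was between -0.02 and 0.06, and that of member minus parent between 0.09 and 0.14, when arrays were left out. The median level of 13.58 moved to 13.47 with 1 probe set per symbol, whether the highest or the lowest was kept, and to 14.87 with a filter at the 75th percentile, which leaves 159 members. Among settings added after seeing the data, it was 13.42 with identical probe sets counted once and 13.45 with symbols updated through RefSeq, which gives 220 members. The median gap to the parent, 1.74, was 3.09 with that filter and 2.36 with the lowest probe set of a symbol. Of 1024 values for 64 named members, 43 changed sign, in 24 members, the largest of these at a difference of 0.19. The causes were not tested. The 16 members below the filter and the 33 below the neg control probe sets are the least certain.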

Other observations

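Updating the platform symbols through RefSeq added 18 probe sets of ribosomal protein pseudogenes, of which 14 were higher in EKO, with a median difference of 0.06 and a median level of 12.26. In the whole table, 1647 probe sets fell into 452 groups with the same values on all 8 arrays, the Rps12, Rps19 and Rpl35a copies among them. Why the values are the same was not tested.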
